A study of Mus musculus with 34 samples.

Results

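Hepcidin and its partners in iron handling were examined as 8 genes of the mouse liver, *Hamp*, *Tfr2*, *Hfe*, *Hfe2*, *Tmprss6*, *Slc40a1*, *Trf* and *Cp*, out of 22380 protein-coding genes annotated on mm9. The rule names them by function and uses no measured value, but they were picked with earlier results of these data known. A peak was assigned to a gene when its centre lay between 50 kb upstream of the transcription start site (TSS) and 2 kb beyond the gene's end. The measurements are ChIP-seq peak lists for the histone deacetylase HDAC3, the homeobox corepressor PROX1 and the nuclear receptor HNF4α. All livers came from male C57B/6 mice aged 10 weeks and were taken at zeitgeber time 10, that is, 10 h after lights on. HDAC3 and PROX1 were each mapped in 3 libraries labelled Control, and HNF4α in 2 libraries labelled HNF4A_floxed, from mice with a floxed *Hnf4α* gene. Per the methods, the controls of the floxed mice received an AAV8 vector that expresses a fluorescent protein from the hepatocyte-driven TBG promoter. Each factor has 1 list made from pooled replicates, so no spread between livers can be given and no difference was tested. The lists carry no read counts and no expression values, so the depth is unknown and the liver label could not be checked against marker genes. There are 21247 peaks of HDAC3 and 27423 of PROX1, all 200 bp wide. Those of HNF4α number 24253 and are narrower. The lists were made with the authors' signal cutoffs. A peak that stands in both the HDAC3 and the PROX1 list may still be below the cutoff in either ChIP, because overlap needed only a lower minimum signal. Below, a factor named as absent or alone at a site means that the lists hold no overlapping peak, and weaker signal may exist there.

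Hepcidin is a peptide hormone that hepatocytes secrete and that lowers plasma iron by binding ferroportin, the only known iron exporter of mammalian cells, and causing its degradation. Its transcription responds to BMP signals through SMAD proteins and to inflammatory cytokines through STAT3. HFE and transferrin receptor 2 take part in sensing transferrin-bound iron, and hemojuvelin is a BMP co-receptor that the protease matriptase-2 cleaves. Transferrin carries iron in plasma, and ceruloplasmin oxidizes iron so that transferrin can bind it. HDAC3 and PROX1 act as corepressors on DNA that sequence-specific factors bind, and HNF4α is a main activator of hepatocyte genes.

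The 8 windows held 40 of the 28631 peaks of HDAC3 and PROX1. Of these, 33 were co-bound, meaning that the same coordinates stand in both lists, and 7 were in the PROX1 list alone. None was in the HDAC3 list alone, a class that makes up 4.22% of all peaks of both factors. PROX1-only peaks made up 17.5% of the peaks near the iron genes and 25.8% of all. For overlap of the lists, the methods required 50% shared length and, in the other ChIP, only a lower minimum signal than the list cutoffs.

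Co-bound peaks were called triply bound when HNF4α covered 50% of their length or more. The call joins lists from different livers, so it is an overlap of lists and does not show the factors together on the same DNA. This held for 24 of the 33 co-bound peaks near the iron genes, 72.7% (95% Wilson interval 55.8 to 84.9, counting error only), beside 61.3% of all 20039 co-bound peaks. The overall share lies inside that interval. Peaks are not replicates, so the interval is no test of a difference. Of the 7 PROX1-only peaks, 3 carried HNF4α, 42.9% (15.8 to 75), beside 36.7% of all PROX1-only peaks, and here too the overall share lies inside the interval.

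Each of the 8 genes had a co-bound peak in its window, as did 38.4% of all protein-coding genes. Each also had a triply bound peak, against 31.1% of all genes. An HNF4α peak lay in all 8 windows and in 49.7% of windows overall. A PROX1-only peak was found for 5 of the 8 genes, beside 25.2% of all genes, and an HDAC3-only peak for 0 of 8, beside 7.40%. At the TSS itself, 6 of 8 genes had a co-bound peak within 1 kb, beside 5.05% of all genes, and 8 of 8 had an HNF4α peak there, beside 9.38%. The median iron gene had 4.5 co-bound, 3 triply bound and 5.5 HNF4α peaks in its window, and the median gene overall had 0 of each. The windows were of like length, with a median of 69.5 kb for the iron genes and 67.4 kb for all genes. The comparison genes include those that liver does not use, and the part of this in the difference was not tested. Windows of neighbours can overlap, so 1 peak can count for several genes.

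**Figure D1:**
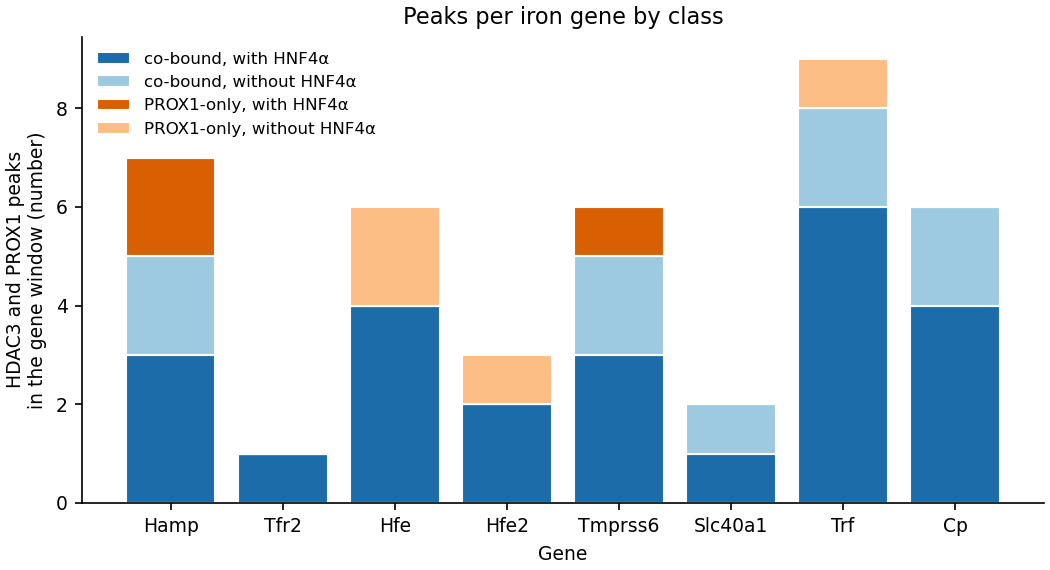
Number of HDAC3 and PROX1 peaks in the window of each iron gene (bars), split by class and by whether an HNF4α peak covers at least 50% of the peak. Trf has the tallest bar, with 6 triply bound, 2 other co-bound and 1 PROX1-only peak, and Tfr2 has a single triply bound peak.

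**Figure D2:**
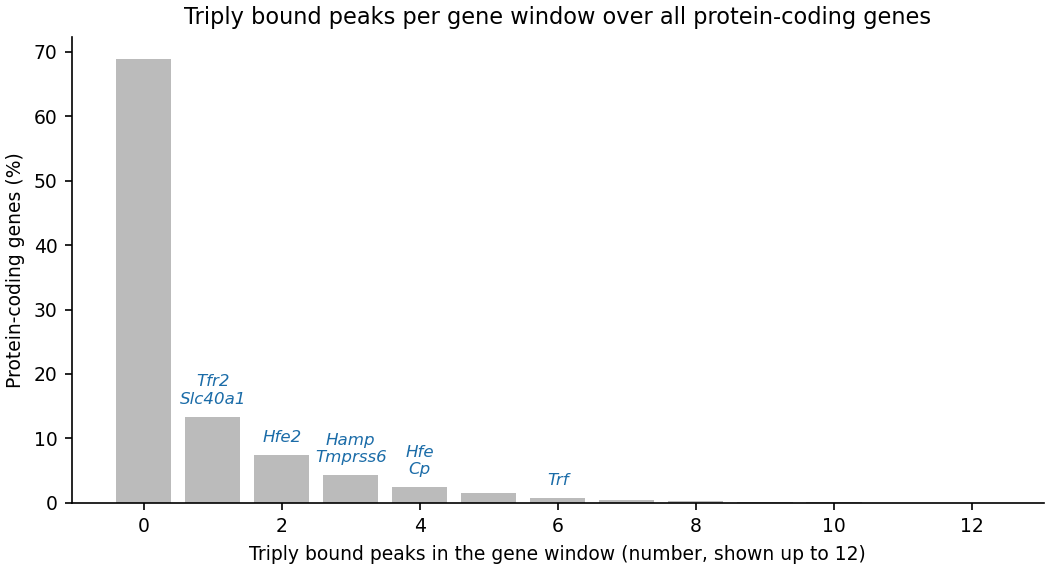
Percent of all 22380 protein-coding genes (bars) by the number of triply bound peaks in the gene window, with the iron genes written above their bar and the axis ending at 12 peaks. The bar at 0 holds 68.9% of genes and no iron gene, and Trf stands furthest to the right of the 8, at 6 peaks.

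*Hamp*, which encodes hepcidin, is a reverse-strand gene of chromosome 7 (mm9, 31727390 to 31729036). Its window held 11 HNF4α peaks, the most of the 8 genes, and 1.04% of all genes have as many or more. Most of the 11 lay 10.3 to 43.4 kb upstream and were nearest to the TSS of a neighbouring gene. The HNF4α peak closest to the TSS was centred 154 bp upstream, and overlapped no HDAC3 or PROX1 peak. Its score, the value that the authors' peak caller gave, was 23.1, rank 22424 of 24253, below the median of the list, 41.9.

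The next positions held peaks of the PROX1 list alone. PROX1-only peaks with HNF4α were centred 1.52 kb upstream, where the HNF4α score was 43.3, and 6.08 kb upstream, where it was 22.1. Both lie in an intron of the neighbour *Usf2*, which encodes a bHLH transcription factor, but their nearest TSS is that of *Hamp*. The co-bound peak nearest to the TSS was 10.3 kb upstream, also in a *Usf2* intron, with an HNF4α score of 48.1. HNF4α covered 55.5% of its length, just above the limit, with a narrow peak of 111 bp that lay wholly inside it.

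The other 4 co-bound peaks of the *Hamp* window were 30.0 to 44.7 kb upstream and nearest to the TSS of *Lsr*, which encodes a lipoprotein receptor. The one at 30.0 kb, in the *Lsr* promoter, met no HNF4α peak, although one scoring 60.3 was centred 30.2 kb from *Hamp*. Those at 41.5 and 43.4 kb, in an annotated intron of *Fam187b*, were triply bound with scores of 114.0 and 63.1, and the one at 44.7 kb had no HNF4α. No co-bound peak of the window was closer to the TSS of *Hamp* than to that of another gene, so which gene these distant peaks act on cannot be told from the lists. Between 20.5 and 31.6 kb upstream, in or near *Lsr*, 5 HNF4α peaks with scores of 23.6 to 60.3 overlapped neither factor. With a window of 10 kb upstream, *Hamp* had 0 co-bound peaks.

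Sequences from the *Hamp* locus are shown because hepcidin has bound sites of different kinds at different distances. All are mm9 sequence, written 5′ to 3′ on the strand of the gene, here the reverse strand. In the promoter HNF4α peak the capitals mark the letters of the STAT motif TTCNNNGAA and of the BMP-responsive element GGCGCC, in the co-bound peak nearest to the TSS the HNF4 core CAAAG on either strand, and in the distal triply bound peak a match to a longer HNF4 consensus with at most 2 mismatches. The promoter peak and its marked letters, and the longer consensus, were chosen after the values were seen.
Hamp promoter HNF4α peak (chr7:31729114-31729266): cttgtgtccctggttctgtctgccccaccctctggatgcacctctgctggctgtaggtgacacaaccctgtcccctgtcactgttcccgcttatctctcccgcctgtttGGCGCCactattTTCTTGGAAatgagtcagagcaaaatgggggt
Hamp co-bound peak nearest to the TSS (chr7:31739249-31739448): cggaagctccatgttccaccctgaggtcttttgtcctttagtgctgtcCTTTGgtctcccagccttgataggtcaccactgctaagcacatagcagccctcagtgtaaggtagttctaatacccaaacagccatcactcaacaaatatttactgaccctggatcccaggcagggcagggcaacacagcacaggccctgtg
Hamp distal triply bound peak (chr7:31770459-31770658): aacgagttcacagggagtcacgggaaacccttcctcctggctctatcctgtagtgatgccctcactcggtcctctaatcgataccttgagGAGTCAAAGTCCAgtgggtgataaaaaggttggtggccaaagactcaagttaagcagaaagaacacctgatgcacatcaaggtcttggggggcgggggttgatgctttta

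In the promoter HNF4α peak, TTCTTGGAA stands at 31729137 to 31729145, that is, 101 to 109 bp upstream of the TSS, and GGCGCC at 31729152 to 31729157, 116 to 121 bp upstream. Both motifs together were found in 8 of the 24253 HNF4α peaks, 0.0330%. The pair was chosen after the values were seen, so this low share is no support for a role of the peak. The STAT letters alone stood in 4.56% of HNF4α peaks and the BMP letters in 1.10%. A match describes letters and is no measurement of STAT or SMAD binding.

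*Hfe* encodes an MHC class I-like protein that is mutated in hereditary haemochromatosis. The gene is on the reverse strand of chromosome 13, from 23793903 to 23802723. All 4 of its co-bound peaks were triply bound, and 5.90% of genes have as many triply bound peaks or more. One lay 0.867 kb downstream of the TSS, with 58.5% of its length covered and an HNF4α score of 25. The other 3 formed a group 14.5, 18.4 and 19.8 kb upstream, between genes and nearest to the TSS of the histone gene *Hist1h1c*, with scores of 36.3, 34.9 and 39.1. All 4 scores were below the median of the list, as were those of 29.2 and 28.7 of the HNF4α peaks 19.0 and 25.5 kb upstream that overlapped neither HDAC3 nor PROX1. A pair of PROX1-only peaks, 2.08 kb downstream in an intron and 46.1 kb upstream at the promoter of the histone gene *Hist1h4b*, had no HNF4α.

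*Tfr2*, named *Trfr2* in the annotation, encodes transferrin receptor 2 and lies on the forward strand of chromosome 5, from 138011079 to 138028709. It had the fewest HDAC3 and PROX1 peaks of the 8 genes, a single co-bound peak 10.6 kb downstream of the TSS in an intron. HNF4α covered 70.5% of that peak with a score of 61.3. Near the TSS, HNF4α alone was found 94 bp and 891 bp downstream, with scores of 42.4 and 47.6. At least 1 triply bound peak, the number *Tfr2* had, is found for 31.1% of all genes.

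*Hfe2*, which encodes hemojuvelin, lies on the forward strand of chromosome 3, from 96329108 to 96333139. Both of its co-bound peaks were triply bound. One was centred 84 bp upstream of the TSS, with 75% of its length covered and a score of 35.8. The other was 3.59 kb downstream, in an exon, with a score of 41.5. The HNF4α peak of highest score in the window, 85.3 at 1.03 kb downstream in an intron, overlapped neither HDAC3 nor PROX1. A PROX1-only peak without HNF4α lay 27.2 kb upstream, and an HNF4α peak with a score of 36.3 lay 28.2 kb upstream.

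*Tmprss6* encodes matriptase-2, the protease that limits hepcidin expression. The gene is on the reverse strand of chromosome 15, from 78270098 to 78299064, and had 5 co-bound peaks, 3 of them triply bound. The triply bound peaks were 2.06 kb upstream, with a score of 93.3, and in introns 12.2 and 21.3 kb downstream, with scores of 62.7 and 23.1. The peak at 21.3 kb is nearest to the TSS of *Kctd17*. A co-bound peak 2.47 kb upstream had no HNF4α, although the peak of highest HNF4α score lies next to it. The co-bound peak 138 bp downstream of the TSS met an HNF4α peak with a score of 82.0 that covered 49.0% of it, just under the limit. A PROX1-only peak with HNF4α, scoring 52.8, lay 44.7 kb upstream, nearest to *C1qtnf6*.

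*Slc40a1* encodes ferroportin, the target of hepcidin. The gene is on the reverse strand of chromosome 1, from 45964915 to 45982439, and had 2 co-bound peaks. The one 4.77 kb downstream, in an intron, was triply bound with a score of 48.5. The one 0.896 kb downstream, near the TSS, shared no base with an HNF4α peak. HNF4α alone was found 455 bp upstream with a score of 32. At least as many HNF4α peaks as the 2 of *Slc40a1* are found for 32.5% of genes.

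*Trf*, the gene of transferrin, had the most co-bound and the most triply bound peaks of the 8. The gene is on the reverse strand of chromosome 9, from 103106331 to 103132774, and its window held 8 co-bound peaks, 6 of them triply bound, which 1.92% of all genes match or exceed. Upstream of the gene, triply bound peaks were centred at 3.77, 4.29, 10.9 and 13.4 kb, with scores of 91.9, 64.6, 93.3 and 113.6, each nearest to the TSS of *Trf*. A further 2, at 18.3 and 44.6 kb, were nearest to *1300017J02Rik* and had scores of 55.1 and 46.6. All 6 scores were above the median of the list. At the TSS, 8 bp upstream, a co-bound peak was covered over 48.5% by an HNF4α peak with a score of 91.9 and so missed the limit. In introns of *Trf* but nearest to the TSS of *Srprb*, a co-bound peak 22.2 kb and a PROX1-only peak 23.4 kb downstream of the TSS had no HNF4α.

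*Cp*, which encodes ceruloplasmin, is on the forward strand of chromosome 3, from 19857054 to 19909145. It had 6 co-bound peaks, 4 of them triply bound, and no peak of 1 factor alone. The triply bound peaks were 3.01 kb upstream, with a score of 49.5, and in introns 5.95, 8.40 and 21.6 kb downstream, with scores of 62.2, 96.6 and 43.8. The co-bound peak at 4.52 kb, in an intron, had no HNF4α. The peak at 58 bp downstream of the TSS was covered over 42.5% by an HNF4α peak with a score of 40.1. HNF4α alone was found 7.62 kb upstream, with a score of 23.6. All 6 co-bound peaks were nearest to the TSS of *Cp* itself.

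**Figure D3:**
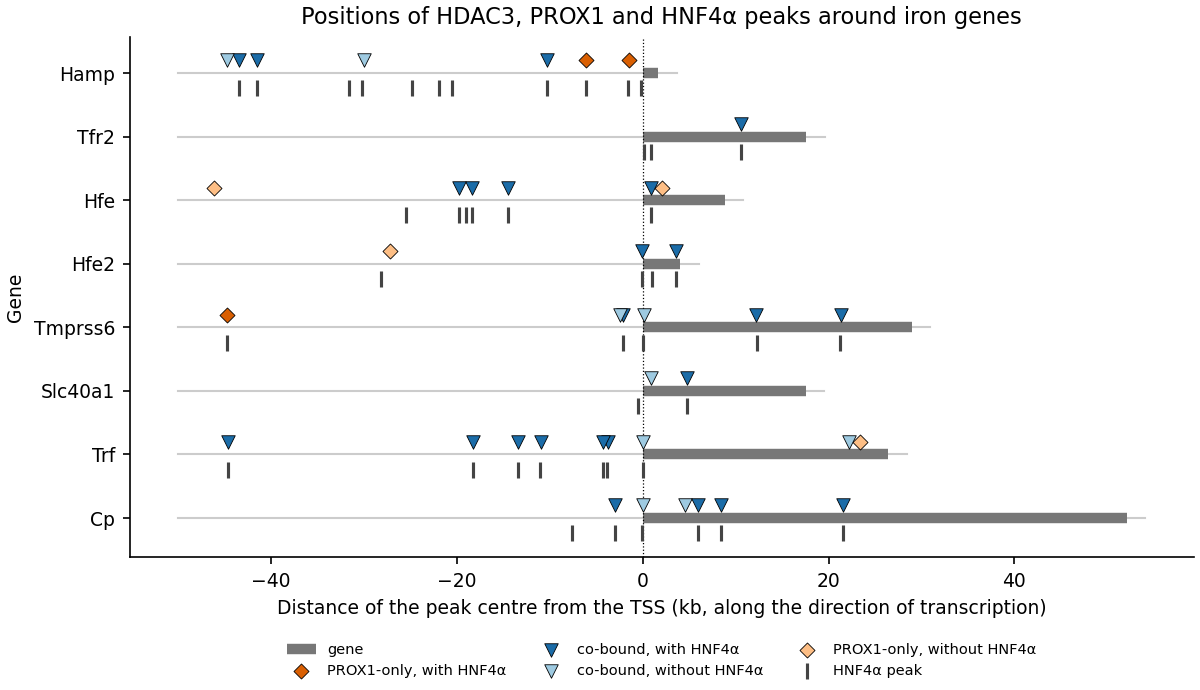
Position of every peak centre relative to the TSS of each iron gene (x axis, kb along the direction of transcription; thick grey bar, gene; thin line, window), with HDAC3 and PROX1 peaks above and HNF4α peaks below the line. Co-bound peaks of Hamp begin 10.3 kb upstream, whereas Hfe, Hfe2, Tmprss6, Slc40a1, Trf and Cp have one within 1 kb of the TSS.

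The triply bound peaks with the highest HNF4α scores of *Trf*, *Cp* and *Tmprss6* are shown to compare with the distal one of *Hamp*. These are the 4 genes with the highest such scores, and showing these 4 was decided after the scores were seen. Sequences run 5′ to 3′ on the strand of the gene. Capitals mark a match to the HNF4 consensus in *Trf* and *Tmprss6*, and the core CAAAG in *Cp*, which holds no match to the consensus.
Trf upstream triply bound peak (chr9:103146102-103146301): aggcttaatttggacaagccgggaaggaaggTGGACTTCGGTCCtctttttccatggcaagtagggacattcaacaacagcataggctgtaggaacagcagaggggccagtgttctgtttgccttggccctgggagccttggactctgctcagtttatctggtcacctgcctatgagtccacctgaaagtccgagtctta
Cp intronic triply bound peak (chr3:19865350-19865549): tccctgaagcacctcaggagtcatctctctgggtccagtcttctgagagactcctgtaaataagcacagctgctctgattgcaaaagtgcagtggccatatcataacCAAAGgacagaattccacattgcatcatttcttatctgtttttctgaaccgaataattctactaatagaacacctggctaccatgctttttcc
Tmprss6 upstream triply bound peak (chr15:78301028-78301227): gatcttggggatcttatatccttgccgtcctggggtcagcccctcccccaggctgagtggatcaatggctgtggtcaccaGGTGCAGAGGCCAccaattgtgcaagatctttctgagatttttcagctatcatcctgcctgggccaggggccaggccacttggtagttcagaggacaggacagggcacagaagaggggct

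Of the 33 co-bound peaks, 19 lay upstream of the TSS and 14 downstream, and 14 were within 5 kb of it. The annotation placed 14 in introns, 11 between genes, 7 in promoters, counted as 1 kb around any TSS, and 1 in an exon. HNF4α at the 50% limit was found at 11 of 14 intronic, 10 of 11 intergenic and 2 of 7 promoter peaks, and at the single exonic one. Over all co-bound peaks the shares were 61.4% in introns, 62.3% between genes, 54.7% in promoters and 65.1% in exons. With any shared base counted, the promoter peaks with HNF4α numbered 5 of 7, beside 63.2% of all promoter peaks. With 7 promoter peaks, nothing particular to the iron genes can be read from these counts. In *Tmprss6*, *Trf* and *Cp* the TSS peak overlapped an HNF4α peak that covered 49.0%, 48.5% and 42.5% of it, with centres 74, 82 and 94 bp apart. Thus 3 of the 9 co-bound peaks outside the triply bound class touched an HNF4α peak and 6 shared no base with one. Among all co-bound peaks, 5.88% had such partial cover. The nearest values above the limit were 55.5% in *Hamp* and 58.5% in *Hfe*. There the HNF4α peaks, 111 and 117 bp wide, lay wholly inside the co-bound peaks.

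**Figure D4:**
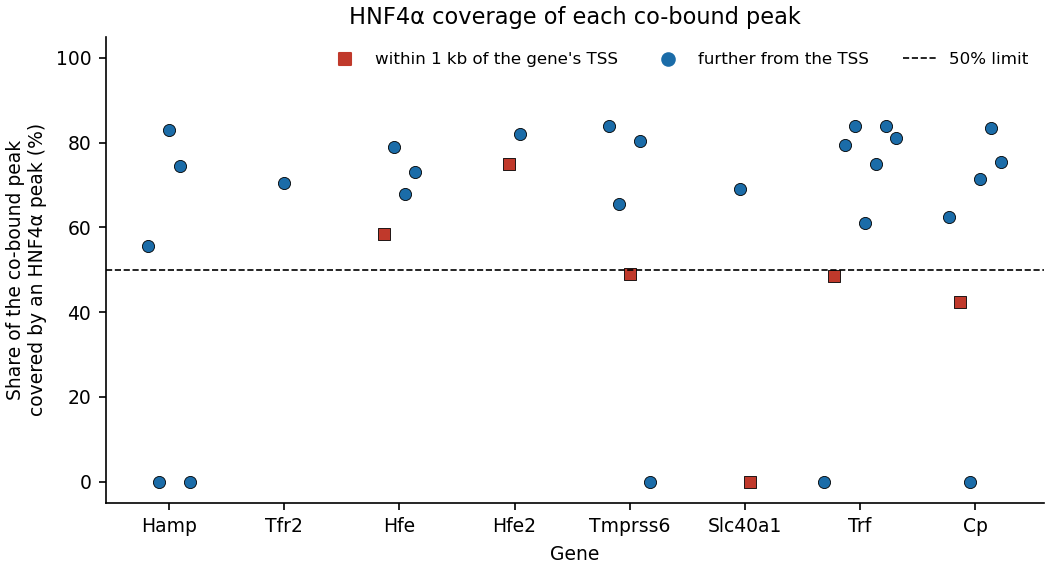
Share of each co-bound peak covered by an HNF4α peak (y axis, percent) for each gene, with squares for peaks within 1 kb of the gene's TSS and circles for the others. The squares of Tmprss6, Trf and Cp fall at 49.0%, 48.5% and 42.5%, below the 50% limit (dashed line), and the other peaks below the line are at 0.

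By distance, 21 of the 33 co-bound peaks had the TSS of the gene itself as the nearest one, and 15 of these were triply bound. The other 12 were nearer to another gene, among them all 5 of *Hamp*. The GC content of the co-bound peaks ranged from 37.0% to 61.0% with a median of 50%, and the median over all co-bound peaks was 46.5%.

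The HNF4α peaks themselves can be divided by what lies on them. Of the 44 in the 8 windows, 27 overlapped a co-bound peak by at least 1 base, 61.4% (46.6 to 74.3), beside 55.4% of the whole list, which lies inside the interval. A PROX1-only peak was met by 3, beside 12.2% of the list, and 14 overlapped neither factor, beside 31.4% of the list. The median score was 55.1 (range 23.1 to 114.0) where HNF4α overlapped a co-bound peak, 43.3 (22.1 to 52.8) on PROX1-only peaks and 35.3 (23.1 to 85.3) where it overlapped neither. Over the whole list the medians were 51.8, 37.2 and 32.5, in the same order. Of the 44 scores, 27 were above the list's median of 41.9. The ranges of the 3 classes overlap.

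**Figure D5:**
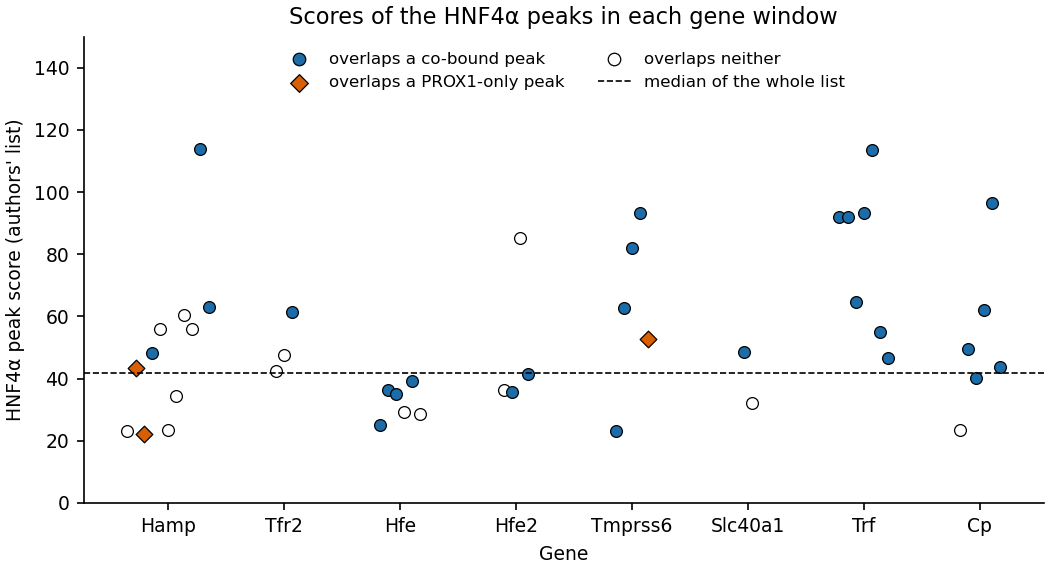
Scores of the 44 HNF4α peaks (y axis, score given by the authors' peak caller) for each gene, by what the peak overlaps, with the median of the whole list as a dashed line. The highest scores, 114.0 in Hamp and 113.6 in Trf, belong to peaks on co-bound sites, and the scores of Hfe all lie below the line.

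Motifs were searched on both strands of the 200 bp co-bound peaks. The HNF4 core CAAAG was found in 21 of 33, 63.6%, beside 64.0% of all co-bound peaks, and CAAAGTCCA, which contains it, in 1, the distal *Hamp* peak, 3.03% beside 2.84%. The longer HNF4 consensus was matched in 7, 21.2% beside 31.2%, and the nuclear receptor site AGGTCA in 10, 30.3% beside 34.6%. The C/EBP letters TTGCNNAA stood in 10, 30.3% beside 26.1%, and the E-box CACGTG in 2, 6.06% beside 4.01%. The STAT letters were found in 6 co-bound peaks, 18.2% beside 9.08%, and the BMP element in 1, 3.03% beside 0.778%. In the 44 HNF4α peaks the STAT letters stood in 6, 13.6% beside 4.56%, and the BMP element in 3, 6.82% beside 1.10%, all 3 of them in the *Hamp* window. In the same peaks the longer HNF4 consensus was matched in 31.8% beside 46.2%, CAAAGTCCA in 4.55% beside 5.72%, CAAAG in 68.2% beside 65.1%, AGGTCA in 27.3% beside 28.2%, the C/EBP letters in 22.7% beside 18.7% and the E-box in 6.82% beside 3.52%. With so few matches these shares are a description.

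A list of 38 other genes of iron biology shows how the 8 compare with their pathway. Among the 38, *Hamp2* lies near *Hamp*, and all peaks counted for it also count for *Hamp*. A co-bound peak lay in the window of 29 of the 38, beside 38.4% of all protein-coding genes, and a triply bound peak in 24, beside 31.1%. A PROX1-only peak was found for 20, beside 25.2%, an HDAC3-only peak for 8, beside 7.40%, and an HNF4α peak for 31, beside 49.7%. Within 1 kb of the TSS, a co-bound peak was found for 4 of 38, beside 5.05% of all genes. An HNF4α peak was found there for 7 of 38, beside 9.38%, where the 8 genes had 6 and 8. Of the 38, 18 are genes of hepcidin control, which include ligands, receptors and SMAD proteins of the BMP pathway and the interleukin 6 branch. Among these 18, 11 had a triply bound peak, 1 had a co-bound peak at its TSS and 0 had HNF4α there. The members *Tfr2*, *Hfe*, *Hfe2* and *Tmprss6* also act in hepcidin control but are not counted in the 18. Each had HNF4α within 1 kb of the TSS, and all but *Tfr2* also had a co-bound peak there. The difference between the 8 genes and these lists was not tested.

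At least 3 triply bound peaks were found for 11 of the 38 and for 5 of the 8, beside 10.2% of all protein-coding genes. Those of the 38 in hepcidin control were *Smad6*, an inhibitory SMAD, with 6, *Acvr1*, a BMP type I receptor, with 5, *Furin*, a proprotein convertase, with 4, and *Bmp6*, the ligand that responds to liver iron, *Atoh8* and *Il6ra*, the interleukin 6 receptor, with 3 each. In uptake and sensing, *Slc39a14*, an importer of iron that is not bound to transferrin, had 4, and *Aco1*, which encodes iron regulatory protein 1, had 4. In haem handling, *Hp*, which encodes haptoglobin, had 4, *Alas1*, the first enzyme of haem synthesis, had 4 and *Hmox1*, which degrades haem, had 3. *Smad4*, the shared partner of the receptor-regulated SMAD proteins, *Neo1*, which encodes neogenin, and *Heph*, the intestinal ferroxidase, had no peak of any list in their windows.

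By the 6 counts of HDAC3 and PROX1 peaks by class and HNF4α state, the genes most like *Trf* among 45 compared were *Aco1* and *Hp*, with a sum of absolute differences of 2 each, and *Cp* and *Smad6*, with 3 each. *Hp* had 4 triply bound, 2 other co-bound and 1 PROX1-only peak, against 6, 2 and 1 for *Trf*.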

How the data were processed

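Processed peak lists of HDAC3, PROX1 and HNF4α from liver were used. Per the labels and methods, reads were mapped by the authors with Bowtie 0.12.7 (mm9) and freed of duplicates; replicates were pooled and peaks called with HOMER against IgG. Positions and, for HNF4α alone, the score per peak were deposited by the authors. The HNF4α list was also filtered on the knockout. The HDAC3 and PROX1 lists each hold 3 empty lines, which split them into blocks and were left out. Depth is unknown because no counts are given.

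Here, peaks were assigned by their centres to GENCODE vM1 genes on NCBIM37, which is mm9. Of 2 models named *Trf*, the one with status KNOWN was used. Intervals are 95% Wilson intervals. Python 3.11.15, numpy 2.4.6, scipy 1.17.1 and matplotlib 3.10.9 were used, and the overlap, window and motif code was tested on simulated data. There was no statistical test, with 1 pooled list per factor.

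The 8 genes were all named. Of the other iron genes, those with at least 3 triply bound peaks or with no peak were named, with the 3 most like the member with most triply bound peaks (ties kept) and the neighbours nearest to a counted peak. *Hamp2* was also named, because its peaks count for *Hamp* too. Members, lists and motifs were chosen with earlier results of these data known. Alternatives changed the coverage limit, HNF4α list and width, gene window, assignment, blocks, merging, motif window and *Trf* model. RNA-seq, H3K27Ac and knockout libraries were not analysed here.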

Additional observations from a re-analysis of the deposited data

How the results depend on the processing

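Of 252 values recomputed under 12 alternatives, 209 stayed close to the main value and 43 moved. The values are counts and shares without a direction, so none could reverse. A count moved when it changed by over 1.5 times, and a share when it left the 95% Wilson interval of its main value, which is narrow for the share over all 22380 genes. The share of co-bound peaks with HNF4α, 72.7%, was 39.4% when 75% had to be covered and 51.5% with HNF4α scores above the median. The co-bound count, 33, was 21 with a 10 kb window and 21 with the nearest TSS only. The count of peaks of 1 factor alone, 7, was 4 with a 10 kb window, 13 with 100 kb and 4 with the nearest TSS. The HNF4α count, 44, was 27 for scores above the median, 25 with 10 kb and 27 with the nearest TSS. The share of all genes with a triply bound peak, 31.1%, was 32.2% at 25% covered, 22.3% at 75%, 32.4% at 1 bp shared, 25% for scores above the median, 31.9% with HNF4α peaks set to 200 bp, 20.0% with 10 kb, 40.6% with 100 kb, 19.0% with the nearest TSS and 27.9% with the first block only. Fewer peaks or bases pass the stricter settings by construction.

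Triply bound genes among the 8 numbered 6 at 75% covered, where *Tfr2* and *Slc40a1* had 0, and 6 for scores above the median, where *Hfe* and *Hfe2* had 0. They numbered 7 with 10 kb and with the nearest TSS, where *Hamp* had 0, and 8 under the other settings. The HNF4α peaks at the triply bound sites of *Tfr2* and *Slc40a1* are 148 and 149 bp wide. They are too narrow to cover 75% of 200 bp, so the 0 at that limit was fixed by their width. Of 176 values per gene, 24 moved, 23 of them down. The other *Trf* model, added after seeing the data, changed none of the totals. No paired analysis was possible because each list pools its replicates, and no replicate could be left out for the same reason.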

Other observations

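The empty lines in the HDAC3 and PROX1 lists split the co-bound peaks into 3 blocks, whose meaning is not given in the sources used here. Of the 33 co-bound peaks near the 8 iron genes, 27 were in the first block, 3 in the second and 3 in the third, where all co-bound peaks divide into 78.3%, 12.3% and 9.43%. HNF4α was found at 19, 3 and 2 of them. The 3 peaks of the second block lie at *Hfe2* and *Trf*, and the 3 of the third at *Hfe* and *Trf*.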
